A study of Homo sapiens
Mus musculus and Mus musculus and Homo sapiens with 16 samples.

Results

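The transcripts of 53 genes that act in S phase and mitosis were followed in human lymphoma cells and in mouse stromal cells of the same cocultures. The genes were a listed set of symbols, 26 for S phase and 27 for mitosis, matched in the human table of 58051 genes and, ignoring case, in the mouse table of 49671 genes. All 53 symbols were found in both tables and all 53 had enough counts to be tested in both species. The comparisons asked whether lymphoma cells bound to stroma, or the stroma itself, carried less of the RNA of dividing cells.

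REC-1 is a human mantle cell lymphoma line, a B cell cancer whose cells carry the cyclin D1 translocation of that disease, and MS-5 is a stromal line from mouse bone marrow. On each coculture dish 5e+05 MS-5 cells were seeded and 5e+06 REC-1 cells were added, 10 lymphoma cells for each stromal cell. Cultures of a single line held the same number of its cells. RNA was taken 24 h later from 4 groups of 4 libraries. These were REC-1 cells cultured without stroma (Sep), REC-1 cells left in suspension above the stroma (Susp), the MS-5 layer with the REC-1 cells adhered to it (Adh), and MS-5 cells alone. The labels name no drug in any group, each species is a single cell line, and the study's figure legends call the replicates independent experiments. Reads of the Adh libraries were split by species, so that each of them gave human counts for REC-1 and mouse counts for MS-5.

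A cell that commits to division first releases the E2F transcription factors from the retinoblastoma protein, and E2F switches on the cyclins E, the MCM helicase and the enzymes that make nucleotides and copy DNA. In G2 and mitosis a later wave of genes follows, driven by MYBL2 and FOXM1, which encodes the cyclins B, the mitotic kinases, kinetochore and spindle proteins, and the ubiquitin ligase subunits that start anaphase. Resting cells keep both waves off, so the RNA of these genes is widely read as a measure of proliferation. The libraries are bulk samples, in which a smaller share of cells in a phase and less RNA per cell in that phase cannot be told apart.

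The human counts held 7758979 to 13241751 fragments on genes in the Adh libraries, 9325412 to 12597891 in Sep and 15000927 to 21467832 in Susp. The mouse counts held 29495404 to 34615602 in Adh and 10097555 to 17397651 in MS-5 alone. The cell types were checked against marker genes. The 10 B cell markers summed to 5820 to 6360 CPM (counts scaled to a common library total) in the human counts and to 0.128 to 0.52 CPM in the mouse counts, while the 10 stromal markers summed to 6000 to 6940 CPM in the mouse counts and to 5.08 to 9.02 CPM in the human counts, where 4 of the 10 were at 0 throughout each group, with LUM the gene shared by all groups. Lum and Dcn, which encode the matrix proteoglycans lumican and decorin, were at 0 in every MS-5 library too, so 8 of the 10 stromal markers were read there. The sum of stromal markers in human counts was 5.78 to 9.02 CPM in Adh and 5.08 to 8.9 CPM in Sep, so the ranges for REC-1 counts taken from mixed dishes and for REC-1 cells grown without stroma overlapped. Susp replicate 2 stood apart from the other Susp libraries over the counted genes as a whole, and not only in several long ones. The mean chi-square per gene between replicates, which grows with differences beyond sampling noise, was 52.8 to 57.4 for its pairs. It was 6.76 to 10.1 for the pairs of the other Susp libraries. Values without Susp replicate 2 stand beside several of the REC-1 results.

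All 53 genes were on in REC-1 cells and in MS-5 cells. Together they took 1.32% ± 0.015 (SD, n = 4) of human counts in Adh, 1.38% ± 0.01 in Sep and 1.32% ± 0.0465 in Susp, and 0.936% ± 0.0442 of mouse counts in Adh against 0.887% ± 0.0137 in MS-5 alone. Per length (RPKM, CPM per kilobase of exon), MYBL2, a transcription factor of the S and G2 phase programme, was the highest in REC-1 at 586 RPKM in Sep, 713 in Susp and 676 in Adh, followed by PCNA, the clamp that holds DNA polymerase on its template, at 379, 389 and 453 RPKM. CCNE2, a cyclin E, was the lowest at 3.7, 3.44 and 3.38 RPKM. The order differed in the stroma. Rrm2, a subunit of ribonucleotide reductase, was the highest at 355 RPKM in MS-5 alone and 342 in coculture, followed by the helicase subunit Mcm4 at 124 and 121 RPKM, and E2f2 was the lowest at 1.13 and 1.08 RPKM. The lowest count of any member in any library was 61, so no member was limited to a few reads.

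The first comparison set adherent REC-1 cells against cells left in suspension in the cocultures. No member was called between Adh and Susp. A call required a Benjamini-Hochberg adjusted p of at most 0.05 over 12861 tested genes in edgeR's quasi-likelihood test and a change of at least 1.5-fold, and 0.778% of all tested genes met it. DESeq2 also called 0 members, and 2.19% of all genes. At an unadjusted p under 0.05, 16 members differed, 6 higher and 10 lower in Adh, which is 16 of 53 against 18% of all tested genes. The libraries of the groups did not overlap for 11 members, against 11.4% of all tested genes. The median log2 fold change was -0.05 over the 53 members and -0.01 over all tested genes. For 47 of the 53, the 95% interval of the fold change lay within 1.5-fold in both directions, which held for 57% of all tested genes.

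The estimates of the arms of the cycle lay on either side of 0. Of 27 mitosis genes, 22 had an estimate below 0 in Adh against Susp, with a median of -0.13, and 9 were lower and 0 higher at an unadjusted p under 0.05. Of 26 S phase genes, 17 had an estimate above 0, with a median of 0.06, and 6 were higher and 1 lower. Over all tested genes, 10.2% were lower and 7.84% higher at that threshold. The gap between the arms was read in each library as the mean log2 CPM of the mitosis genes minus that of the S phase genes. It was -0.09, -0.19, -0.08 and -0.19 in Adh, 0.1, 0.06, 0.11 and 0.01 in Sep, and 0.11, -0.07, 0.09 and 0.11 in Susp. All 4 Adh libraries were below all Sep and Susp libraries, with Susp replicate 2 at -0.07 next to the highest Adh value of -0.08. The mean over all members hardly moved, at 7.32 to 7.33 log2 CPM in Adh, 7.33 to 7.4 in Sep and 7.33 to 7.43 in Susp.

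**Figure D1:**
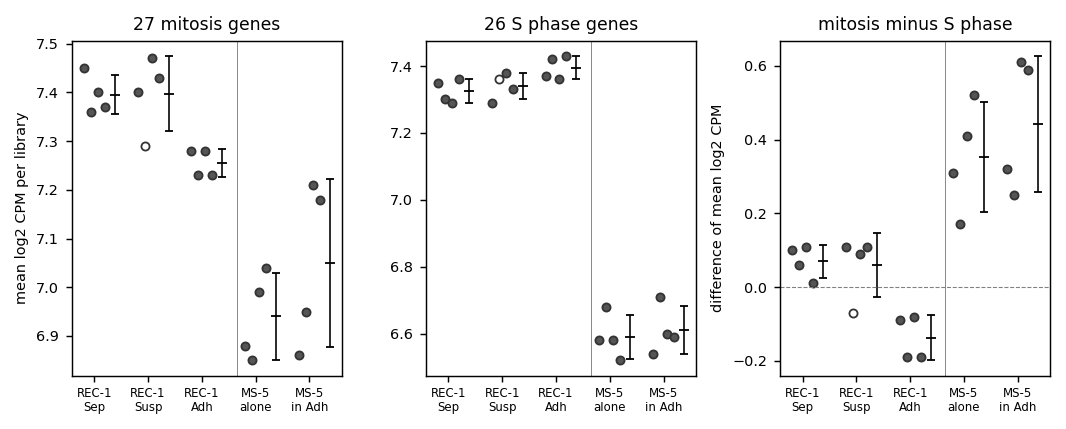
Mean log2 CPM of the 27 mitosis genes, of the 26 S phase genes, and the difference between them, for each library of each group (points), with the group mean and SD beside them (bar, n = 4). The open point is Susp replicate 2. The difference is -0.19 to -0.08 in REC-1 cells of the Adh group, 0.01 to 0.11 in Sep and -0.07 to 0.11 in Susp, while MS-5 in coculture and alone overlap.

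The 4 genes of anaphase onset had estimates of -0.45 to -0.05 between Adh and Susp, with a median of -0.33, and of -0.44 to 0.11 without Susp replicate 2. ESPL1, which encodes separase, the protease that cuts the cohesin rings between sister chromatids, was the one member whose adjusted p passed in edgeR without the fold minimum, which 0.941% of all tested genes did. On DESeq2's adjusted p 3 members passed, ESPL1 (0.00087), UBE2C (0.0234) and PLK1 (0.0487), against 3.97% of all tested genes. With replicate number as a block, the same 3 passed the edgeR adjusted p, against 5.33% of all tested genes. ESPL1 was counted at 194, 206, 183 and 196 CPM in the Adh libraries, at 265, 232, 279 and 259 CPM in Susp and at 254, 296, 294 and 311 CPM in Sep. The Adh libraries lay below every other REC-1 library. Its log2 fold change from Susp to Adh was -0.41 (SE 0.09, edgeR adjusted p = 0.027). With each library left out in turn, ESPL1 ranged from -0.44 to -0.38 and its adjusted p stayed at or under 0.05 in 2 of 8 fits, those without Susp replicate 2 (0.00341) and without Adh replicate 2 (0.0492).

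UBE2C, the E2 enzyme of the anaphase promoting complex, had the lowest estimate, -0.45 (SE 0.12, edgeR adjusted p = 0.0804). Its levels were 46.7, 50.8, 48.3 and 53.1 CPM in Adh and 56.4, 85.9, 64.5 and 64.6 CPM in Susp. No library overlapped, but the Sep libraries, at 48.3, 53.6, 55 and 59.2 CPM, lay among the values of both other groups, and 85.9 CPM belonged to Susp replicate 2. Without that library UBE2C was at -0.3 (adjusted p = 0.0979). CDC20, which activates the same complex, was at 166 ± 13.2 CPM in Adh and 197 ± 28.3 CPM in Susp (SD, n = 4; log2 fold change -0.24, SE 0.1, edgeR adjusted p = 0.227), and at -0.15 without Susp replicate 2. PTTG1, the securin that holds separase inactive, was at 74.8 ± 3.48 CPM in Adh and 77.3 ± 15 in Susp, and its log2 fold change of -0.05 turned to 0.11 without Susp replicate 2. PTTG1 has near-identical copies elsewhere in the genome, and only uniquely mapped reads were counted, so its level is less certain.

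Among the cyclins A and B and the mitotic kinases, 6 of 7 estimates were below 0 and 4 were lower at an unadjusted p under 0.05. PLK1, the kinase that drives centrosome maturation and cohesin release, was counted at 125, 146, 154 and 163 CPM in Adh and at 160, 208, 198 and 190 CPM in Susp. The groups overlapped by the value of 1 library on each side (log2 fold change -0.36, SE 0.11, edgeR adjusted p = 0.113). AURKA and AURKB, the Aurora kinases of the spindle poles and of the centromere, were at -0.22 and -0.24 (AURKB at -0.15 without Susp replicate 2), and CCNA2, the cyclin A of S and G2 phase, was at -0.18. For CDK1 and CCNB1, the core of the mitotic engine, the interval held 0. CDK1, the kinase that enters mitosis, was at 210 ± 12.6 CPM in Adh and 207 ± 15.6 CPM in Susp (log2 fold change 0.02, 95% interval -0.17 to 0.22), and CCNB1, its cyclin B partner, was at 192 ± 11.2 and 210 ± 12.5 CPM (-0.13, 95% interval -0.31 to 0.06).

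MKI67, which coats mitotic chromosomes and is stained as a marker of proliferation in the clinic, was read at 817, 904, 780 and 661 CPM in Adh and at 953, 458, 1060 and 1030 CPM in Susp. Susp replicate 2 was below every Adh library and the other Susp libraries were above every one. The log2 fold change was -0.14 (SE 0.19, edgeR adjusted p = 0.702), and -0.34 (SE 0.09, adjusted p = 0.0858) without Susp replicate 2. TOP2A, the topoisomerase that untangles sister chromatids, went from -0.12 to -0.24 in the same way (adjusted p = 0.628 and 0.104). CENPE, a kinetochore motor, was at 135, 126, 131 and 110 CPM in Adh and at 181, 90.1, 189 and 195 CPM in Susp, and its log2 fold change was -0.38 (SE 0.17, adjusted p = 0.256) with all libraries and -0.57 (SE 0.07, adjusted p = 0.000561) without Susp replicate 2. In that fit of 11 libraries, CENPE, ESPL1 and PCNA passed the adjusted p without a fold minimum, 3 of 53 against 1.2% of the genes tested there, and 0 members were called, against 0.68%.

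Of the 7 S phase genes with an unadjusted p under 0.05, 6 were at a higher level in Adh and E2F1 at a lower one. PCNA was at 638, 599, 633 and 671 CPM in Adh and at 523, 628, 513 and 516 CPM in Susp, where the high value was again replicate 2 (log2 fold change 0.22, SE 0.08, edgeR adjusted p = 0.178; 0.31 and adjusted p = 0.0164 without it). CDC6, which loads the MCM helicase at origins, was at 96.6, 90.5, 87.8 and 89.3 CPM in Adh and at 83.4, 76.2, 79.8 and 70.5 CPM in Susp. Every Adh library was above every Susp library, and the log2 fold change of CDC6 was 0.23 (SE 0.1, adjusted p = 0.235). MCM6, a subunit of that helicase, likewise did not overlap, at 212, 194, 200 and 208 CPM in Adh and 177, 174, 186 and 173 CPM in Susp (log2 fold change 0.2, SE 0.08, adjusted p = 0.216). MCM4 was at 1020 ± 33.7 and 892 ± 62.8 CPM (0.2) and CHEK1, the S phase checkpoint kinase, at 261 ± 17.7 and 226 ± 12.4 CPM (0.21).

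MCM2 was at 426 ± 39.9 CPM in Adh and 417 ± 24.9 CPM in Susp (log2 fold change 0.03, 95% interval -0.16 to 0.22), and MCM5 at 279 ± 36.1 and 284 ± 20.3 CPM (-0.03, 95% interval -0.25 to 0.2). RRM2 was at 430 ± 17.9 and 383 ± 6.22 CPM (0.17, SE 0.08, edgeR adjusted p = 0.294). Among the regulators, E2F1 was at 98.4 ± 8.33 CPM in Adh and 120 ± 16.1 CPM in Susp (-0.29, SE 0.11, adjusted p = 0.212, and -0.18 without Susp replicate 2), CCNE1 at 30.7 ± 3.45 and 29.8 ± 5.17 CPM (0.05, and 0.19 without that library) and FOXM1 at 82.6 ± 2.77 and 78.7 ± 8.91 CPM (0.07). All errors here are SDs over 4 libraries. ESPL1, UBE2C, CENPE, CENPF and the other members outside the representatives fixed for each role were picked out after their values were seen.

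**Figure D2:**
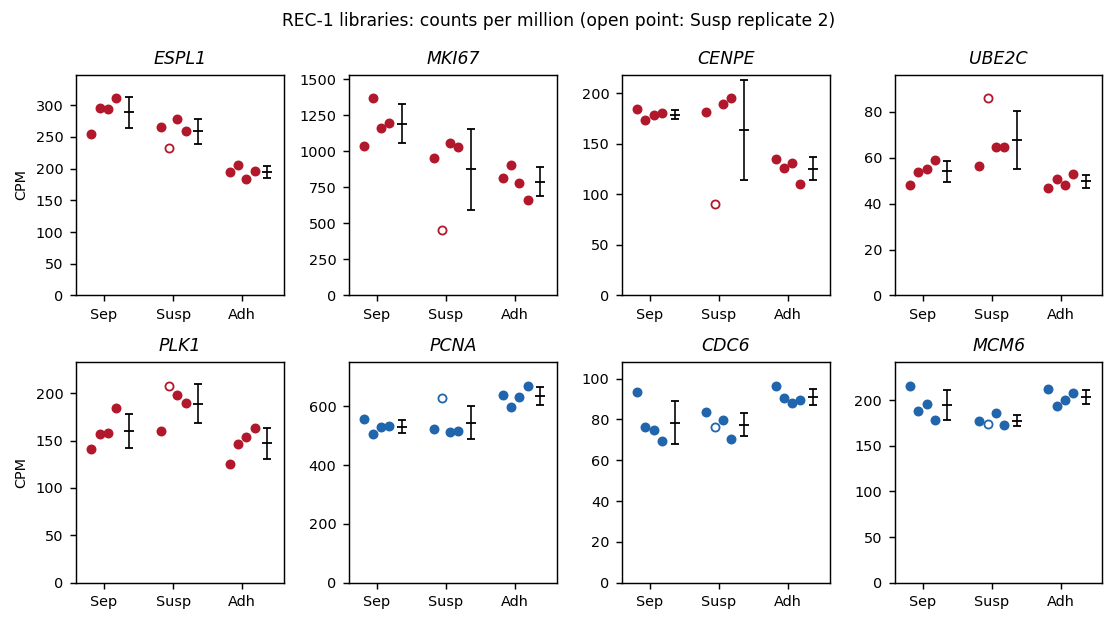
CPM of 8 members in each REC-1 library (points), with the mean and SD of each group (bar, n = 4), mitosis genes in red and S phase genes in blue. ESPL1 is lower in all 4 Adh libraries (183 to 206 CPM) than in any other, and the open point, Susp replicate 2, is low for MKI67 (458 CPM) and CENPE (90.1 CPM) and high for UBE2C (85.9 CPM) and PCNA (628 CPM).

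The letters before the start sites differed between the arms. The cell cycle genes homology region (CHR), through which the DREAM and MYBL2 complexes time mitosis genes, was searched as TTTGAA, and the E2F site as TTTCCCGC, TTTGGCGC, TTTCGCGC or TTTGCCGC, both on either strand in the 250 bases before the annotated start of each gene's canonical transcript (GRCh38, GENCODE). The CHR letters stood before 16 of 27 mitosis genes, 14 of them within 65 bases of the start, before 0 of 26 S phase genes, and before 10.2% of 20032 protein-coding genes. The E2F letters stood before 12 of 26 S phase genes, 3 of 27 mitosis genes and 3.75% of all. CCAAT, the box bound by NF-Y, stood before 23 mitosis genes, 18 S phase genes and 34.3% of all. A match is a description of the letters and not of a bound site.

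The 160 bases before the start are shown for 3 mitosis genes with CHR letters whose estimates were below 0 in Adh cells and for 2 S phase genes with E2F letters, 5′ to 3′ on the strand of the gene, with CHR, E2F and CCAAT letters in capitals. Some letters run together, as the CHR and CCAAT letters of MKI67 and the E2F spellings of MCM6 overlap.
ESPL1, chr12:53268139-53268298, plus strand: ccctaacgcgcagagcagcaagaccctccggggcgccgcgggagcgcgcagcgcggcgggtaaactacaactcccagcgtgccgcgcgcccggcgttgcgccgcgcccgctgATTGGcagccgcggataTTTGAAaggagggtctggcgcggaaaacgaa
PLK1, chr16:23678729-23678888, plus strand: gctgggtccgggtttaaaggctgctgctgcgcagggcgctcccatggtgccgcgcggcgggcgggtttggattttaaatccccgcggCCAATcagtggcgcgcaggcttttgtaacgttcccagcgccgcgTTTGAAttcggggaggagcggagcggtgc
MKI67, chr10:128126424-128126583, minus strand: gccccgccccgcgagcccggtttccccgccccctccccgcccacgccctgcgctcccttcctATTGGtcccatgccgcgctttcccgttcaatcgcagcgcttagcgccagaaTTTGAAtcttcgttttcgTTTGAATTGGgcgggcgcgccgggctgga
MCM6, chr2:135876444-135876603, minus strand: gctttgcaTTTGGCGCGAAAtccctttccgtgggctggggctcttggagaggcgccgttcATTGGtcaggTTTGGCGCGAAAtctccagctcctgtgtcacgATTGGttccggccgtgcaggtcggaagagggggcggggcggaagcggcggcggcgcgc
E2F1, chr20:33686386-33686545, minus strand: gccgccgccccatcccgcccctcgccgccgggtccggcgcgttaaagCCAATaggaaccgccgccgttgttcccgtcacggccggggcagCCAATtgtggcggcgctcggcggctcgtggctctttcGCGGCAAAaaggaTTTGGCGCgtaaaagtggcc

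Members with CHR letters had a median log2 fold change of -0.17 between Adh and Susp (16 members, -0.45 to 0.05), and the other 37 a median of 0.01 (-0.38 to 0.28). Within the mitosis genes alone the medians were -0.17 with CHR letters and -0.13 for the 11 without. Members with E2F letters had a median of -0.02 (15 members) and the others -0.11.

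The second comparison set adherent cells against REC-1 cells that never met stroma. No member was called between Adh and Sep, against 2.4% of all tested genes. DESeq2 called 1 member, MKI67 (log2 fold change -0.59, DESeq2 adjusted p = 0.0424), beside 4.1% of all genes. Unadjusted, 6 members were higher and 5 lower in Adh at a p under 0.05, 11 of 53 against 20.2% of all tested genes (9.23% higher and 11% lower), and 10 members did not overlap, against 15.7%. The median over the members was 0 and the 95% interval lay within 1.5-fold for 48 of 53, which held for 57.4% of all tested genes. As between Adh and Susp, the mitosis genes had a median below 0 (-0.1, 20 of 27 below 0) and the S phase genes a median above it (0.08, 19 of 26 above 0). Both comparisons share the 4 Adh libraries.

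The lower genes were 5 genes of mitosis. ESPL1 was the member whose adjusted p passed, with 195 ± 9.55 CPM in Adh against 289 ± 24.1 CPM in Sep (SD, n = 4; log2 fold change -0.57, SE 0.09, edgeR adjusted p = 0.00116), just short of the 0.585 that 1.5-fold makes on the log2 scale, while 3.41% of all tested genes passed without the fold minimum. Its adjusted p stayed at or under 0.0066 with each library left out, and ESPL1 was called without Sep replicate 1 (-0.62) and without Adh replicate 2 (-0.59). MKI67 was at 817, 904, 780 and 661 CPM in Adh and at 1040, 1370, 1160 and 1200 CPM in Sep. These did not overlap, and the log2 fold change was -0.59 (SE 0.19, edgeR adjusted p = 0.0909). CENPF, a kinetochore and nuclear matrix protein, was at 315, 326, 294 and 245 CPM in Adh and at 407, 479, 429 and 397 CPM in Sep (-0.54, SE 0.16, adjusted p = 0.0727). CENPE was at 125 ± 11.2 and 179 ± 4.34 CPM (-0.51, SE 0.17, adjusted p = 0.107), and TOP2A at 397 ± 30.4 and 505 ± 33.7 CPM (-0.35, SE 0.12, adjusted p = 0.124).

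These standard errors depended on a library of neither group. The REC-1 model shares 1 estimate of each gene's spread over its 12 libraries, and for MKI67, CENPE, CENPF and TOP2A the estimate was wider with Susp replicate 2 than without it. Without Susp replicate 2, an alternative chosen after the data were seen, the SE of MKI67 fell from 0.19 to 0.09 at the same estimate of -0.59, and MKI67 was called (edgeR adjusted p = 0.000599), beside 3.97% of the genes tested there. In that fit 8 members passed without the fold minimum, against 11.9% of all genes. MKI67, TOP2A, CENPE, CENPF and ESPL1 were lower (TOP2A adjusted p = 0.00423, CENPE 0.000304, CENPF 0.00165), and PCNA, FEN1 and PTTG1 were higher. A model of the Adh and Sep libraries alone also called MKI67 (adjusted p = 0.00224). There 7 members passed without the fold minimum, against 8.22% of all genes tested. MKI67, TOP2A, CENPE, CENPF and ESPL1 were again lower, and PCNA and FEN1 higher.

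The other mitosis representatives did not differ by more than their spread. CDK1 was at 210 ± 12.6 CPM in Adh and 205 ± 21.1 CPM in Sep (log2 fold change 0.04, 95% interval -0.15 to 0.23), CCNB1 at 192 ± 11.2 and 190 ± 19 CPM (0.02, -0.17 to 0.2), CDC20 at 166 ± 13.2 and 165 ± 5.25 CPM (0.01, -0.2 to 0.23), and PLK1 at 147 ± 16.2 and 160 ± 18 CPM (-0.12, -0.35 to 0.11). On the S phase side PCNA was at 638, 599, 633 and 671 CPM in Adh and at 556, 505, 530 and 534 CPM in Sep, with no overlap (log2 fold change 0.26, SE 0.08, edgeR adjusted p = 0.0832). FEN1, which trims Okazaki fragments, was at 216 ± 7.41 and 183 ± 5.89 CPM (0.24, adjusted p = 0.116). CDC6 was at 91 ± 3.87 and 78.4 ± 10.4 CPM (0.22), CCNE1 at 30.7 ± 3.45 and 25.4 ± 1.75 CPM (0.28), RRM2 at 430 ± 17.9 and 388 ± 42.1 CPM (0.15), MCM2 at 426 ± 39.9 and 389 ± 33.2 CPM (0.13) and MCM5 at 279 ± 36.1 and 276 ± 34.7 CPM (0.01). E2F1, at 98.4 ± 8.33 and 99.3 ± 13.5 CPM (-0.01), and FOXM1, at 82.6 ± 2.77 and 87.4 ± 3.64 CPM (-0.08), were near 0. Errors are SDs over 4 libraries.

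**Figure D3:**
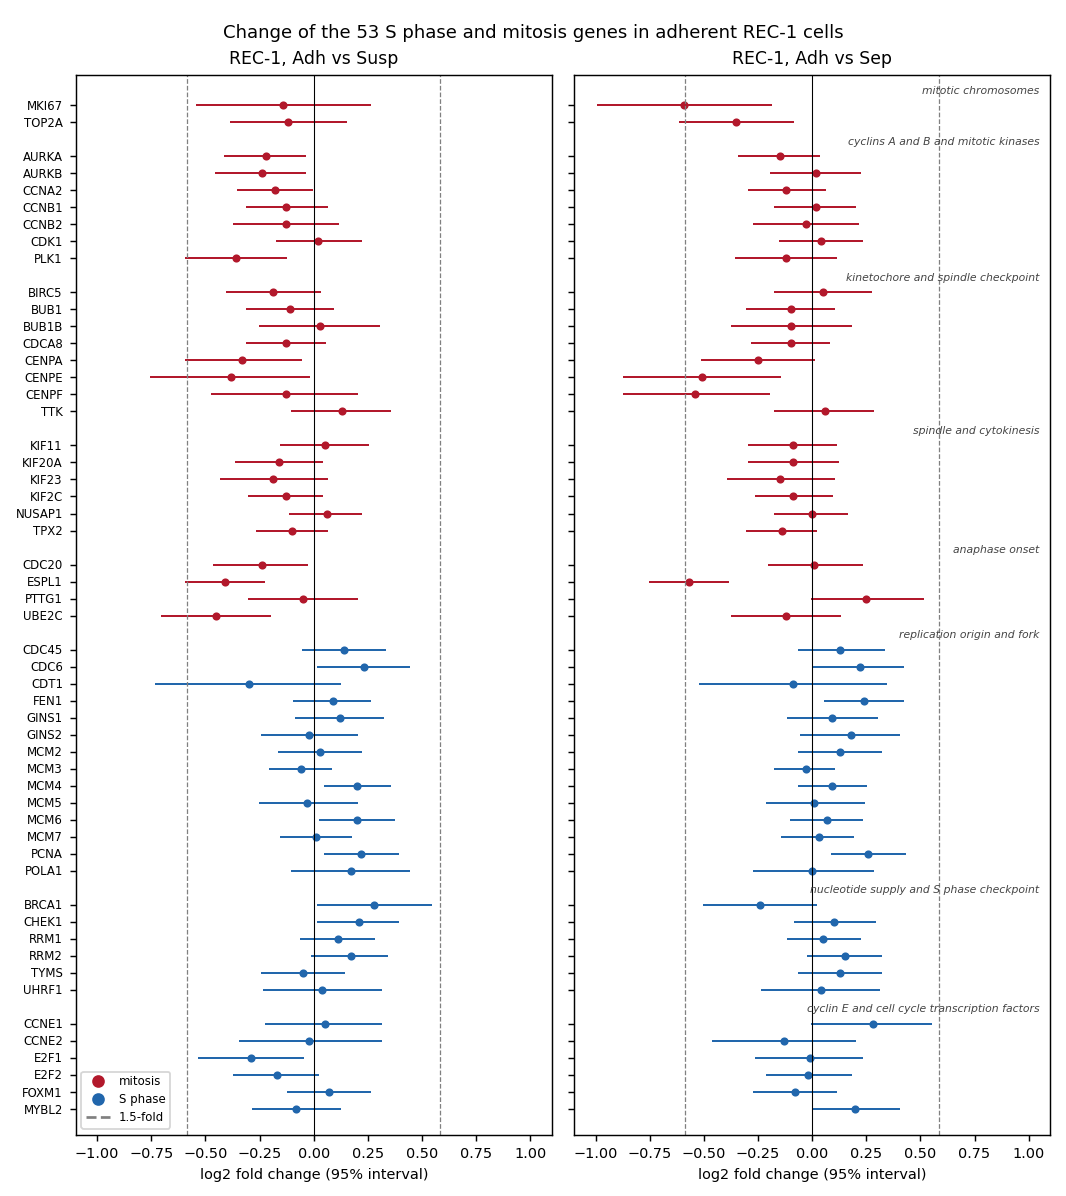
Log2 fold change of each of the 53 members in REC-1 cells, Adh against Susp (left) and Adh against Sep (right), with the 95% interval from edgeR, grouped by role, with mitosis genes in red and S phase genes in blue. The dashed lines mark 1.5-fold, within which the whole interval lies for 47 members on the left and 48 on the right, and ESPL1 is below 0 in both (-0.41 and -0.57).

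The third comparison, Susp against Sep, concerned cells that shared medium with the stroma but did not adhere. No member was called, against 0.731% of all tested genes, 0 passed on the edgeR adjusted p without the fold minimum, against 1.02%, and DESeq2 called 0, against 1.55%. With replicate number as a block, MYBL2 and BRCA1 passed the edgeR adjusted p, beside 3.86% of all tested genes. Unadjusted, 8 members were higher and 3 lower in Susp at a p under 0.05, 11 of 53 against 16.7% of all tested genes (9.32% higher and 7.36% lower), and 3 did not overlap, against 11.3%. The median was 0.03, and 49 of the 53 intervals lay within 1.5-fold, which held for 56.2% of all tested genes. The higher ones were UBE2C (0.33), PTTG1 (0.3), MYBL2 (0.28), E2F1 (0.27), CDC20 and AURKB (both 0.26), PLK1 and BIRC5 (both 0.24), with edgeR adjusted p from 0.166 to 0.282. Susp replicate 2 had the highest value of the Susp group for UBE2C, PTTG1, MYBL2, E2F1, CDC20, AURKB, PLK1 and BIRC5. Without it UBE2C was at 0.19, PTTG1 at 0.15, MYBL2 at 0.23, E2F1, CDC20 and AURKB at 0.17, PLK1 at 0.18 and BIRC5 at 0.14.

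The lower ones were long genes. BRCA1, a repair and checkpoint factor of S phase, was at 69.2, 44.7, 59.3 and 60.1 CPM in Susp and at 86.5, 90.4, 79.4 and 78.3 CPM in Sep, with no overlap (log2 fold change -0.52, SE 0.12, edgeR adjusted p = 0.0533). Without Susp replicate 1 it was called, and without Susp replicate 2 it was at -0.42 (adjusted p = 0.0549). MKI67 was at -0.45 (SE 0.19, adjusted p = 0.258) and CENPF at -0.4 (SE 0.16, adjusted p = 0.236), and without Susp replicate 2 they were at -0.25 and -0.24. The other representatives lay between -0.23 and 0.23, namely TOP2A at -0.23, FOXM1 at -0.15, CDC6 and RRM2 at -0.02, CDK1 at 0.01, MCM5 and PCNA at 0.04, MCM2 at 0.1, CCNB1 at 0.14 and CCNE1 at 0.23. Without Susp replicate 2, TOP2A was at -0.1 and CCNE1 at 0.09.

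Exon length moved with these effects. Over the 53 members, the log2 fold change and the log2 exon length had Pearson r = -0.76 and Spearman rho = -0.73 between Susp and Sep, r = -0.46 between Adh and Sep and r = 0.26 between Adh and Susp. Over all tested genes with a length r was -0.23, -0.02 and 0.17. The points of a comparison share its libraries, so these are descriptions. Without Susp replicate 2, r was -0.6 between Susp and Sep, -0.46 between Adh and Sep and -0.1 between Adh and Susp. Between Susp and Sep the 9 members with the longest exons (8017 to 15547 bases) had a median of -0.16 and the other 44 a median of 0.04. GC content moved with them too, with r = 0.53 over the members between Susp and Sep, 0.19 between Adh and Sep and -0.32 between Adh and Susp. Over all tested genes with a GC value r was 0.35, -0.11 and -0.43, so it was farthest from 0 between Adh and Susp. When each library was corrected for the smooth dependence of its log2 CPM values on length and GC content, an alternative chosen after the data were seen, the median of the mitosis genes between Adh and Susp stayed at -0.12 and that of the S phase genes was 0.15, and 9 members passed the adjusted p between Adh and Sep, against 11.6% of all tested genes, among them ESPL1, MKI67, CENPE, CENPF and TOP2A, which were lower in Adh. With that correction and without Susp replicate 2, 15 members passed between Adh and Susp, against 5.08% of all genes tested there. They were 9 mitosis genes lower and 6 S phase genes higher in Adh, and CENPE was called (-0.63, SE 0.06, edgeR adjusted p = 3.49e-07). Between Adh and Sep the same fit passed 14 members, against 21.9% of all genes tested there, and called 0. The part of length in the uncorrected results was not tested further.

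**Figure D4:**
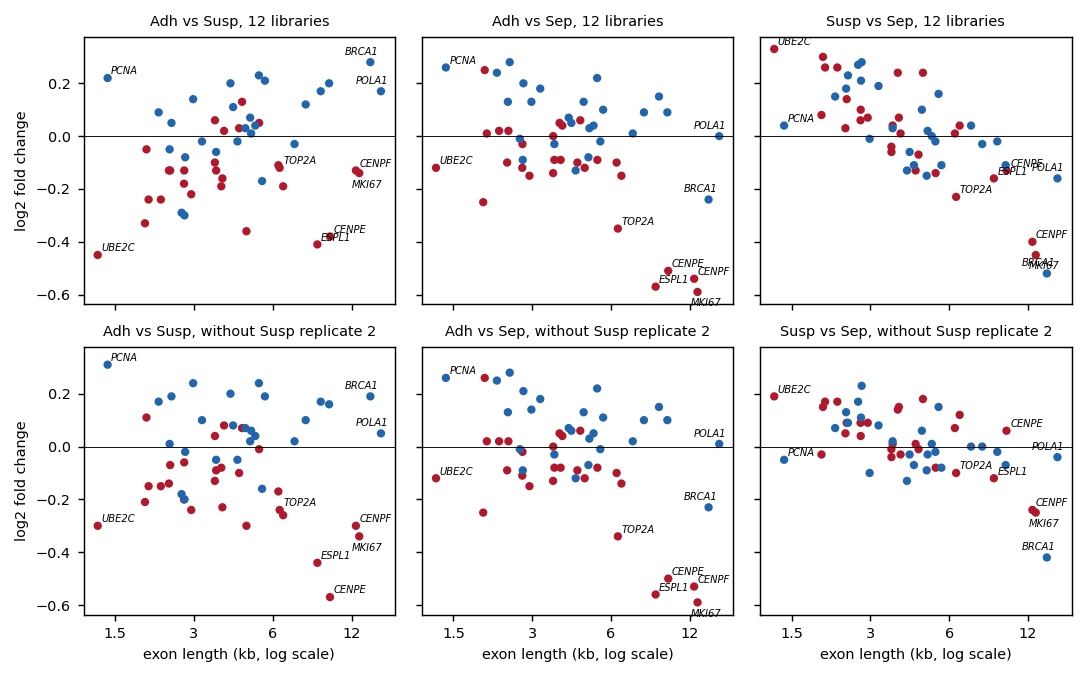
Log2 fold change of the 53 members against exon length in kilobases (log axis) for the 3 REC-1 comparisons, over 12 libraries (top) and without Susp replicate 2 (bottom), with mitosis genes in red and S phase genes in blue. Between Susp and Sep the long genes are lowest (r = -0.76 over 12 libraries and -0.6 over 11), and MKI67, CENPF, CENPE and ESPL1 are low in Adh against Sep in both rows.

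The stroma was read in the same dishes. No member was called between MS-5 cells in coculture and MS-5 cells alone in edgeR, against 0.205% of 12201 tested genes, 0 passed on the adjusted p alone, against 0.77%, and DESeq2 called 0, against 0.324%. With replicate number as a block, Ttk and Nusap1 passed the edgeR adjusted p, both higher in coculture, beside 3.57% of all tested genes. Unadjusted, 8 members were higher in coculture and 0 lower at a p under 0.05, 8 of 53 against 11.3% of all tested genes (5.16% higher and 6.1% lower), and 3 did not overlap, against 6.74%. The median over the members was 0.08 and the median of all tested genes was 0. Of the mitosis genes 26 of 27 had an estimate above 0 (median 0.11), and of the S phase genes 14 of 26 (median 0.03). For 52 of 53 members the 95% interval lay within 1.5-fold, against 79.7% of all tested genes.

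The highest estimates were Cenpf at 0.25 (SE 0.1, edgeR adjusted p = 0.347), the spindle checkpoint kinases Ttk at 0.24 (SE 0.08, adjusted p = 0.205) and Bub1 at 0.21 (SE 0.07, adjusted p = 0.186), and the spindle protein Nusap1 at 0.23 (SE 0.1, adjusted p = 0.415). Top2a was read at 531, 586, 638 and 576 CPM in coculture and at 527, 512, 508 and 544 CPM alone, overlapping in 1 library of each group (0.16, SE 0.06, adjusted p = 0.261). Mki67 was at 491, 617, 636 and 512 CPM in coculture and at 486, 513, 507 and 561 CPM alone (0.13, SE 0.08, adjusted p = 0.582). Pcna was at 266, 270, 272 and 274 CPM in coculture and at 253, 261, 264 and 251 CPM alone, a separation without overlap of 0.07 on the log2 scale (SE 0.04, adjusted p = 0.571). Cdk1 was at 0.11, Ccnb1 at 0.11, Cdc20 at 0.09, Plk1 at 0.06, Mcm5 at 0.04, Mcm2 at 0.03, Foxm1 at 0, E2f1 at -0.03, Ccne1 at -0.04 and Cdc6 and Rrm2 at -0.06, each with a 95% interval that holds 0. In both stromal groups the gap between mitosis and S phase genes was wide, at 0.32, 0.25, 0.61 and 0.59 in coculture and 0.31, 0.17, 0.41 and 0.52 alone, so the groups overlapped. In the order of the replicate numbers, each coculture value was above the value alone, the first only just.

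Lymphoma and stroma were then compared in 1 model, which tested for 8546 genes with the same symbol in both species whether the change of REC-1 cells from Sep to Adh differed from that of MS-5 cells from alone to coculture. Of the 53 members, 3 were called, all lower in the lymphoma, against 1.97% of all genes tested (1.3% in that direction). They were CENPF at -0.78 (SE 0.15, edgeR adjusted p = 0.00549), MKI67 at -0.72 (SE 0.14, adjusted p = 0.00567) and CENPE at -0.59 (SE 0.12, adjusted p = 0.00663), each as REC-1 change minus MS-5 change on the log2 scale. ESPL1 at -0.57 (SE 0.14, adjusted p = 0.0223) and TOP2A at -0.5 (SE 0.09, adjusted p = 0.00476) passed without the fold minimum, making 5 members against 4.61% of all genes. With an unadjusted p under 0.05 there were 12 lower and 1 higher, PCNA at 0.18, against 8.96% lower and 11.3% higher over all genes. The median was -0.2 for the mitosis genes, 0.01 for the S phase genes and 0.02 for all genes.

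The 5 genes lie on different chromosomes of GRCh38, CENPF (ENSG00000117724) at chr1:214603185-214664574, MKI67 (ENSG00000148773) at chr10:128096659-128126423, CENPE (ENSG00000138778) at chr4:103105349-103198445, ESPL1 (ENSG00000135476) at chr12:53268299-53293638 and TOP2A (ENSG00000131747) at chr17:40388525-40417896. Their exons cover 12471, 12845, 9928, 8885 and 6374 bases. With the length and GC correction 2 members were called, MKI67 and CENPF, against 2.57% of all genes, and CENPE was at -0.54 (adjusted p = 0.00179). The human and mouse counts of an Adh library come from the same dish and entered the model as separate columns. The model held no Susp library, unlike the REC-1 model of the main fits.

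For CENPF, MKI67 and CENPE the lymphoma supplied most of the difference, with log2 fold changes of -0.54, -0.59 and -0.51 in REC-1 against 0.25, 0.13 and 0.08 in MS-5. The counts of calls rested on few libraries. With the libraries of 1 replicate number left out of all 4 groups of this model, 4 members were called without replicate 1 (MKI67, CENPE, CENPF and ESPL1), 1 without replicate 2 (MKI67), 0 without replicate 3 and 2 without replicate 4 (MKI67 and CENPF). The estimate of MKI67 stayed between -0.84 and -0.66 and that of CENPF between -0.91 and -0.69. Of the representatives that were not named above, RRM2 was at 0.2, CDC6 at 0.27 and CCNE1 at 0.32, and CDK1, CDC20, CCNB1, PLK1, MCM2, MCM5, E2F1 and FOXM1 lay between -0.18 and 0.1, and the lowest adjusted p of these 11 was 0.281.

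**Figure D5:**
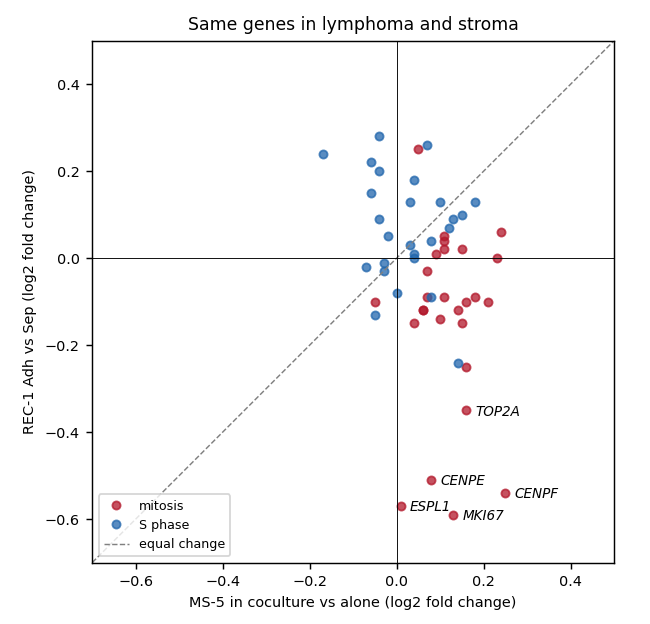
Log2 fold change of the 53 members in REC-1 cells (Adh against Sep, vertical) and in MS-5 cells (in coculture against alone, horizontal), with mitosis genes in red, S phase genes in blue and the line of equal change dashed. The named genes are the 5 whose difference between species had an adjusted p of at most 0.05, all of them between -0.59 and -0.35 in REC-1 and between 0.01 and 0.25 in MS-5.

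Further genes of the same programmes were counted next. Of 30 further S phase genes and 40 further mitosis genes, none was called in any comparison by edgeR or by DESeq2. POLE, the leading strand polymerase, was lower in Adh than in Sep without the fold minimum (178 ± 11.7 against 252 ± 28.8 CPM, SD, n = 4; log2 fold change -0.5, SE 0.1, edgeR adjusted p = 0.0117), 1 of 30 against 3.41% of all tested genes. At an unadjusted p under 0.05 between Adh and Susp, the further S phase genes had 6 higher and 1 lower with a median of 0.14, and the further mitosis genes had 0 higher and 4 lower with a median of -0.01, which is also the median of all tested genes. Over all tested genes 7.84% were higher and 10.2% lower. Between Adh and Sep there were 2 higher and 2 lower further S phase genes and 1 higher and 5 lower further mitosis genes, against 9.23% higher and 11% lower over all genes. Between Susp and Sep there were 0 higher and 5 lower further S phase genes and 4 higher and 3 lower further mitosis genes, against 9.32% and 7.36%. In MS-5, 11 of the 39 further mitosis genes tested were higher in coculture and 0 lower (median 0.11), and 6 of 30 further S phase genes were higher and 0 lower, against 5.16% higher and 6.1% lower over all genes.

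The brakes of the cycle, 24 genes that encode inhibitors of cyclin-dependent kinases, retinoblastoma family proteins and other genes of arrest, held 1 edgeR call in the 4 comparisons, 23 of them being tested in each. At an unadjusted p under 0.05 they counted 7, 5, 5 and 4 in the order Adh against Susp, Adh against Sep, Susp against Sep and MS-5, against 18%, 20.2%, 16.7% and 11.3% of all tested genes. CDKN2D, an inhibitor of CDK4 and CDK6, was higher in Susp than in Sep (31.3 ± 6.31 against 20.7 ± 1.3 CPM, SD, n = 4; log2 fold change 0.6, SE 0.14, edgeR adjusted p = 0.0449), a comparison in which 0.731% of all tested genes were called. DESeq2 called CDKN1C, a kinase inhibitor, between Adh and Susp and between Adh and Sep, where edgeR called 0 brakes. It was at 0.353 ± 0.153 CPM in Adh, 1.44 ± 0.525 in Susp and 1.28 ± 0.613 in Sep (edgeR adjusted p = 0.0691 and 0.0684), a level of few reads, and was picked out after its values were seen. Their medians were -0.06 between Adh and Susp, 0.06 between Adh and Sep, 0.08 between Susp and Sep and 0.02 in MS-5.

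The genes whose level across the 12 REC-1 libraries was most like the mean log2 CPM of the members were sought among 12703 tested genes outside the lists. Among the 10 with the highest Pearson r were ABI1 and WAC (both 0.82), C6orf106 (0.81), NOP9, SPAG5 and CTD-2286N8.2 (all 0.79), SEC24D (0.78), TMEM164 (0.76) and CCNY (0.75). The libraries of a group enter each r together, and the mean of the members ranged over 7.32 to 7.43 log2 CPM in all, so the ranking orders very small differences.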

How the data were processed

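PolyA RNA of 16 libraries was sequenced, 4 each of Sep, Susp, Adh and MS-5. Per the study's methods the authors split read pairs by species with Xenome, aligned them with STAR 2.5.1b to GRCh38 or GRCm38 keeping unique alignments, and counted fragments on genes with featureCounts (Subread 1.5.2). The library kit does not mark strand. The deposited values are raw counts per gene. The tables also hold columns of other samples, 20 in all, which were not used.

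Counts were fitted in edgeR 4.0.16 (R 4.3.3) with filterByExpr, TMM scaling and the quasi-likelihood F-test, the 12 REC-1 libraries in 1 model and the 8 mouse count columns in another. Replicate number was left out of the main fits by a rule on the data, as same-numbered libraries deviated together (r over 0.1) for only 1 to 3 of 4 numbers. The labels number the libraries in sets, so a pairing by experiment is possible, and the main fits do not use it. DESeq2 1.42.0 was an alternative. With replicate number as a block, a larger share of all tested genes passed the adjusted p in each of the 4 comparisons. Between Adh and Susp it was 5.33% against 0.941%. P-values were adjusted by Benjamini-Hochberg over all tested genes. CPM were taken on TMM-scaled totals, log2 CPM with a prior count of 2, and RPKM on the union of exons. The lymphoma-stroma model took each library scaled within its species. Scripts were tested on simulated data. Depth is in the totals given with the results, and intervals cover the spread between libraries.

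The members and lists were chosen with earlier results of these data known. Named were every called member, 14 representatives fixed for the roles, up to 3 called genes of each further list, and genes among the 10 most like the members. Some results under this rule are not reported here. Promoter sequence came from GRCh38 with GENCODE starts. Alternatives were the replicate block, DESeq2, upper-quartile scaling, other low-count filters, thinned counts, no fold minimum, a model of 2 groups and each library left out. The length and GC correction, Adh against Sep without Susp replicate 2 and the model of Adh and Sep alone were added after seeing the data.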

Additional observations from a re-analysis of the deposited data

Results flagged for a closer look

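For 18 named genes, each group of 4 libraries was tested for a library far from the others by Dixon's criterion, 90 groups in all. Chance flags about 1 in 20 such groups, and 3 were found, all in REC-1 cells and all Susp replicate 2. TOP2A was at 298 CPM there against 471 to 476 CPM in the other Susp libraries, CENPE at 90.1 CPM against 181 to 195 CPM, and PCNA at 628 CPM against 513 to 523 CPM. The exons of TOP2A cover 6374 bases, those of CENPE 9928 and those of PCNA 1403.

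For 5 mitosis genes the change of REC-1 cells from Sep to Adh differed from that of MS-5 cells from alone to coculture by the test of the difference itself. The differences on the log2 scale were -0.72 for MKI67, -0.5 for TOP2A, -0.59 for CENPE, -0.78 for CENPF and -0.57 for ESPL1. All 5 had estimates below 0 between Adh and Sep lymphoma cells and above 0 in MS-5. Of these changes within a species, only that of ESPL1 in REC-1 passed the adjusted p in the main fits. The main REC-1 fit includes the Susp libraries, which the model of the difference leaves out. In the model of the Adh and Sep libraries alone, all 5 passed in REC-1, among 7 members, against 8.22% of all genes tested there. With replicate 3 left out, 0 members passed the adjusted p of the difference.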

How the results depend on the processing

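The count of called members was 0 in each of the 4 comparisons and stayed there in most alternatives. Between Adh and Sep it was 1 with DESeq2 (MKI67), with no low-count filter (MKI67), in the model of Adh and Sep libraries alone (MKI67) and with no fold minimum (ESPL1), and 0 to 1 with libraries left out in turn, being 1 without Sep replicate 1 and without Adh replicate 2 (ESPL1) and without Susp replicate 2 (MKI67). Between Adh and Susp it was 1 with no fold minimum (ESPL1) and 1 with the length and GC correction over 11 libraries (CENPE), and between Susp and Sep 0 to 1 with libraries left out, being 1 without Susp replicate 1 (BRCA1). The median over the members moved with the length and GC correction to 0.03 between Adh and Susp and 0.04 between Adh and Sep, and over 11 libraries to 0.00 and 0.04, while the median of all genes moved to 0.04 and 0.06, and over 11 libraries to 0.05 and 0.06. With libraries left out, the members' median between Susp and Sep ranged from 0.01 to 0.06. The 3 members called between species became 5 with no fold minimum and 0 to 4 with a replicate number left out (0 without replicate 3). The cause of these shifts was not tested beyond the library or threshold named. With the replicate block 0 members were called in each of the 4 comparisons and 3 between species. On the edgeR adjusted p alone, 3 passed between Adh and Susp (ESPL1, UBE2C with adjusted p = 0.0228 and PLK1 with 0.0189, beside 5.33% of all genes). Likewise 1 passed between Adh and Sep (ESPL1, beside 5.65%) and 2 between Susp and Sep (MYBL2 and BRCA1, beside 3.86%). In MS-5 2 passed (Ttk and Nusap1, beside 3.57%). The median of the mitosis genes was below that of the S phase genes in 18 of 18 fits between Adh and Susp (-0.16 to -0.12 against 0.03 to 0.15) and in 19 of 19 between Adh and Sep (-0.13 to -0.07 against 0.06 to 0.13). These fits reuse the same libraries and the same genes, so their number is not a count of independent results. The 40 further mitosis genes had medians of -0.01 between Adh and Susp, which is that of all tested genes, and -0.07 between Adh and Sep. The 30 further S phase genes had medians of 0.14 and 0.07. Of the values of named genes under alternatives, 0 reversed with a call, a rule that leaves out every change of sign without a call. Such changes did occur with libraries left out. CDK1 ranged from -0.03 to 0.08 between Adh and Susp, and CENPE from -0.22 to 0.06 between Susp and Sep. With 4 libraries a group, ESPL1 was the only member to pass the edgeR adjusted p in the main fits of the 4 comparisons. It passed under 1.5-fold, at -0.41 between Adh and Susp and -0.57 between Adh and Sep. Changes of the other members were not told from 0 at that threshold in the main fits. Some passed it in alternatives. UBE2C and PLK1 did so between Adh and Susp with the replicate block. MKI67, TOP2A, CENPE, CENPF, PCNA and FEN1 did so between Adh and Sep in the model of those groups alone.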
